A study of Mus musculus with 5 samples.

Results

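The regions described here are Gfi1 ChIP-seq peaks that lie inside exons but away from gene starts in mouse medulloblastoma. They were chosen by the Gfi1 peak calls and by their position. A Gfi1 peak of tumor 39 was taken when it shared at least 1 bp with a Gfi1 peak of tumor 41, when its nearest edge lay over 1 kb from every annotated transcription start site (TSS), and when its midpoint fell in an annotated exon. This gave 770 exonic peaks of the 36836 Gfi1 peaks in tumor 39, of which 20685 overlapped a tumor 41 peak and 7530 of these were distal, that is, over 1 kb from every TSS. The other distal peaks comprised 3972 with an intronic midpoint and 2788 with an intergenic midpoint, and 13155 peaks were at a TSS. The number of peaks and their Gfi1 scores are therefore descriptions, and the Lsd1 lists were not used in the choice.

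Gfi1 and Lsd1 were each immunoprecipitated from the same 2 MG tumors, numbered 39 (replicate 1) and 41 (replicate 2), so that the 4 libraries form pairs. MG tumors grow from Prominin1+ cerebellar stem cells (strain C57BL/6 in the labels) that were infected with retroviruses carrying Gfi1 and a stabilized Myc and then transplanted into the cerebella of immunodeficient NSG mice. Gfi1 and Myc were thus expressed from viral vectors in both tumors, and no library from tumors without Gfi1 was analysed here. The control chromatin listed for the series was a pool of input from MGB tumors, labelled as Myc/Gfi1b. The deposited lists held 36836 and 25078 Gfi1 peaks and 30367 and 33213 Lsd1 peaks in tumors 39 and 41. Each peak carries a score but no read count, so that the depth behind a single peak is unknown, and scores are given as percentiles among all peaks of the same list. Where several peaks of a list overlapped, as at 47 exonic peaks for Gfi1 in tumor 41, the highest was used, and it need not lie over the exon.

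Gfi1 is a zinc finger repressor that binds DNA with the core AATC and silences target genes through a short SNAG domain at its N-terminus. The SNAG domain holds Lsd1 (Kdm1a), a demethylase that removes methyl groups from lysine 4 of histone H3, a mark of active promoters and enhancers. Away from gene starts, exons consist mainly of coding sequence and 3′ UTRs, and the last exon usually holds the stop codon and the 3′ UTR.

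The sequence beneath the strongest coding peaks is shown first, because coding peaks as a group held more CpG dinucleotides than other distal peaks. Each run is the coding strand around the peak midpoint in mm10 and stays within 1 coding exon, with CpG dinucleotides in capitals. Prr7 (chr13:55472788-55472987, plus strand, exon 3 of 3) held 18 CpGs in 200 bp, and Apold1 (chr6:134983780-134983979, plus strand, exon 2 of 2) held 17 in 200 bp. Hist1h1d (chr13:23555455-23555654, plus strand, in a single-exon transcript) held 11 in 200 bp, and Dusp8 (chr7:142083592-142083751, minus strand, exon 5 of 7) held 5 in the 160 bp of its exon. In the 500 bp around its midpoint Dusp8 held 1 CpG per 100 bp, below the intronic median of 1.8. The Dusp8 midpoint also lay in the last exon of another transcript, so that the peak is counted among last-exon peaks below.
Prr7: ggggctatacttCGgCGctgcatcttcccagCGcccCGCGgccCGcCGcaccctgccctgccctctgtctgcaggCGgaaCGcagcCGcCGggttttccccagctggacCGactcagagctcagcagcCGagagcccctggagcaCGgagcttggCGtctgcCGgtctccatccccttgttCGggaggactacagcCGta
Hist1h1d: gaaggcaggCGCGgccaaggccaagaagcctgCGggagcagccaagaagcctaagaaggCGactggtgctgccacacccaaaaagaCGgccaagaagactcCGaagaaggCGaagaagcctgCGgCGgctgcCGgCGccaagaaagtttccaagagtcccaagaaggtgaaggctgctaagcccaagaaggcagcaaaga
Apold1: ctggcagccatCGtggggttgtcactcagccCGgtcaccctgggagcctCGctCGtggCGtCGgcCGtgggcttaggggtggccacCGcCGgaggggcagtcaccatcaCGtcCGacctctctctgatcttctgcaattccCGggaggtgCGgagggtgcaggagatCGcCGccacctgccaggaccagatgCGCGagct
Dusp8: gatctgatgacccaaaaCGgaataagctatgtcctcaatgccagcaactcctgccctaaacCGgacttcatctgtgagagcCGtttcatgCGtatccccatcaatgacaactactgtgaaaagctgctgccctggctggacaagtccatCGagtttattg

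Few exonic peaks held the longer Gfi1 site AATCACNGC, which was searched on both strands within 250 bp of the midpoint and was present in 12 of 770 peaks (1.56%). The same window held it at 1.33% of intronic, 2.12% of intergenic and 1.16% of TSS peaks. Of the 6 highest exonic peaks with a match, 5 are shown with the match in capitals, on the strand that carries it. They lay at Upk3b (chr5:136046325-136046353, minus strand), Maml1 (chr11:50257315-50257343, minus strand), Trappc5 (chr8:3679542-3679570, minus strand), Coro7 (chr16:4627455-4627483, minus strand) and Dtx4 (chr19:12466414-12466442, plus strand). At 4 of these genes the midpoint was in a 3′ UTR, and at Trappc5 it was in coding sequence.
Upk3b: aaaaaaaaaaAATCACAGCaattctccag
Maml1: ggtcactggaAATCACTGCcacagtacag
Trappc5: gatctcgggcAATCACAGCctcttcaaat
Coro7: aggcacgcctAATCACAGCtgccactgcc
Dtx4: aacaacttcaAATCACAGCagttactaac

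The shorter core AATCAC, which AATCACNGC contains, was found in 11.8% of exonic peaks (91), against 14.0% of intronic, 16.1% of intergenic and 10.6% of TSS peaks. The E-box CACGTG, a site bound by Myc, was found in 12.2% of exonic peaks and in 11.4% to 12.5% of the other classes. The AP-1 site TGANTCA was found in 10.3% of exonic peaks, 14.3% of intronic peaks, 15.9% of intergenic peaks and 7.34% of TSS peaks. A match within the window is a description of the letters and not of a bound site.

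Exons held a larger share of the distal Gfi1 peaks than of the bases away from start sites. Of the 7530 distal peaks, 10.2% had an exonic midpoint (exact 95% interval from 9.55% to 10.9%), whereas exons made up 3.29% of all bases over 1 kb from a TSS. Leaving out a further 767 bp, the size of a typical peak arm, the exonic share of bases was 2.88%. The intervals cover counting error only. Exons at least as long as the peak held 302 of the 770 peaks (39.2%), and 123 peaks (16.0%) lay wholly in exons, so that most peaks also reached into flanking sequence. A median of 66.4% of the peak was exonic, and the median exon was 1349.5 bp long against a median peak width of 1535 bp.

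Last exons held 533 of the 770 peaks (69.2%, exact 95% interval from 65.8% to 72.5%), counted when the midpoint lay in the last exon of at least 1 multi-exon transcript. Last exons made up 64.4% of exonic bases away from start sites, or 67.8% after the peak arm was left out, so that the excess over their length was small. When every multi-exon transcript at the midpoint had to end there, 483 peaks (62.7%) remained. A further 203 peaks were in inner exons and 34 in single-exon transcripts only. The median last exon was 1824 bp long and the median inner exon was 204 bp long, so that a median of 73.2% of a last-exon peak was exonic compared to 29.1% of an inner-exon peak.

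Coding sequence stood out more than last exons did. A midpoint in coding sequence was found for 356 peaks (46.2%, exact 95% interval from 42.7% to 49.8%), whereas coding sequence made up 29.7% of exonic bases away from start sites. Of the 356 coding peaks, 189 were in a last exon. A 3′ UTR held 250 midpoints, a non-coding exon 156 and a 5′ UTR 8. By position along the gene, 476 of 770 (61.8%) fell in the last 20% of the host gene and 30 (3.90%) in the first 20%, and 231 (30.0%) lay within 1 kb of the gene end. The distance rule itself favours the end of the gene. The last 20% held 54.2% of the exonic bases over 1 kb from a TSS, or 57.8% after the peak arm was left out. The first 20% held 6.18%, or 5.13% after the peak arm was left out.

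**Figure D1:**
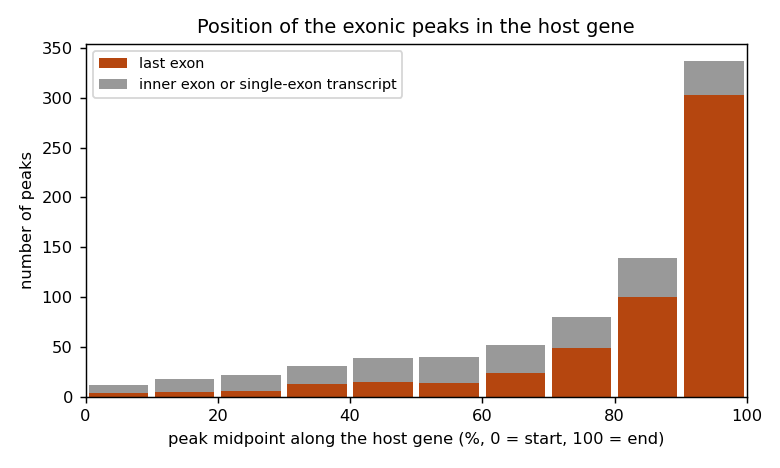
Number of exonic Gfi1 peaks by the position of the midpoint along the host gene, in steps of 10% from start (0%) to end (100%). The last 10% held 337 of the 770 peaks and 40.4% of the eligible exonic bases (43.8% after the peak arm was left out). Of these 337 peaks, 303 were in a last exon.

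Coding peaks were rich in CpG dinucleotides compared to other distal peaks. In the 500 bp around the midpoint, the median was 4.2 CpG per 100 bp for coding peaks in last exons and 3.0 for coding peaks in other exons. Peaks in 3′ UTRs and in non-coding exons had a median of 2.0, near the 1.8 of intronic and the 2.0 of intergenic peaks, and TSS peaks had 6.4. The interquartile range of coding peaks in last exons (2.8 to 6.8) overlapped that of TSS peaks (3.0 to 9.4). Over all exonic peaks the median was 2.6, and the median GC content was 55.6% against 52.6% for intronic peaks. CpG content outside peaks in the same exons was not measured.

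**Figure D2:**
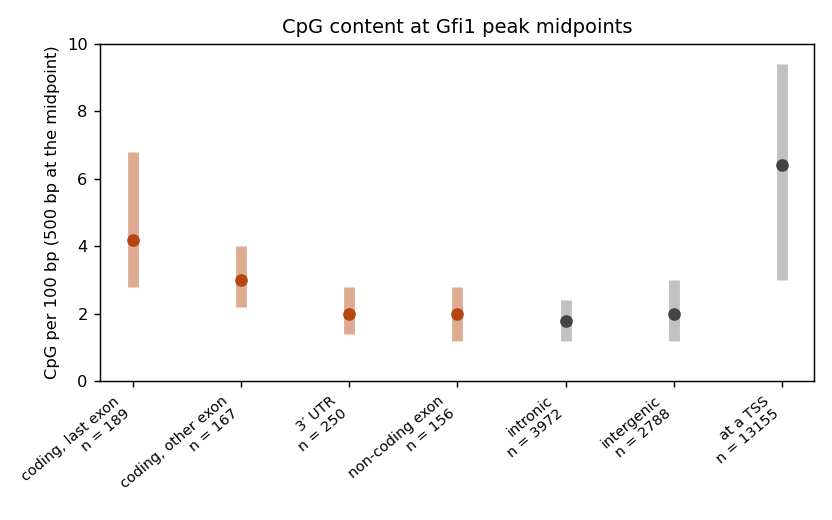
CpG dinucleotides per 100 bp in the 500 bp around Gfi1 peak midpoints, by class of position. Points are medians and bars span the quartiles over peaks. Coding peaks in last exons (median 4.2) sit between intronic peaks (1.8) and TSS peaks (6.4).

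Lsd1 was found at most exonic Gfi1 peaks. An Lsd1 peak overlapped 649 of the 770 (84.3%) in tumor 39. In tumor 41 it overlapped 685 (89.0%), so that the mean share was 86.6% ± 3.31 (SD, n = 2 tumors). In both tumors 607 (78.8%, exact 95% interval from 75.8% to 81.7%) were overlapped, and in neither tumor 43 (5.58%). Over all 20685 Gfi1 peaks of both tumors these shares were 91.4% and 2.4%, values set largely by TSS peaks, of which 96.5% were overlapped in both tumors. Over intronic peaks the same shares were 82.3% and 5.19%, and over intergenic peaks 83.9% and 5.31%. With 2 tumors the p-value of an exact permutation test could not fall under 0.5. No test was therefore run, and differences are given beside the spread between tumors. The overlap depended on the Gfi1 call in tumor 41. Among all 2333 exonic distal peaks of tumor 39, whether found in tumor 41 or not, 40.7% overlapped Lsd1 in both tumors. It also depended on peak width. It fell to 19.2% when all peaks were trimmed to their central 200 bp, and 10.3% overlapped an upper 20% Lsd1 peak in both tumors.

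The mean difference in Lsd1 overlap between exonic and intronic peaks was smaller than its spread between tumors. The share was 4.03 percentage points lower at exonic peaks in tumor 39 (84.3% against 88.3%) and 0.16 points higher in tumor 41 (89.0% against 88.8%), a mean of -1.93 ± 2.97 points (SD, n = 2 tumors). Starting from the tumor 41 peaks alone turned the mean difference to 5.48 points, and starting from the tumor 39 peaks alone gave -9.07 points. Compared to TSS peaks, exonic peaks were overlapped less often in each tumor, by 13.1 points in tumor 39 and 9.40 points in tumor 41, on average -11.2 ± 2.58 points. Lsd1 peaks can be much wider than the exon. At 120 exonic peaks in tumor 39 and 100 in tumor 41, each overlapping Lsd1 peak itself came within 1 kb of a TSS, and with distal Lsd1 peaks alone the share overlapped in both tumors was 61.3%.

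Peaks with a higher Gfi1 score overlapped Lsd1 more often. The share of exonic peaks overlapped in both tumors was 46.4%, 65.3%, 82.4%, 95.8% and 100% in bands of 20 percentiles from the lowest to the highest tumor 39 score. Intronic peaks rose in the same manner, from 61.6% in the lowest band to 94.8% in the highest. In the lowest band the interval of the exonic share (37.0% to 56.1%) lay below that of the intronic share (57.8% to 65.3%). In the other bands the intervals overlapped. These intervals, like those by width below, cover counting error over peaks and not the spread between tumors. The bands match the tumor 39 score alone. Over all bands the median tumor 41 percentile was 37.0 for exonic and 42.2 for intronic peaks. By width, 58.7% of exonic peaks under 1000 bp were overlapped in both tumors and 92.9% of those over 2000 bp. The exonic share was below the intronic share in each of 4 bands of width. From 1000 to 1500 bp it was 70.3% (64.1% to 76.0%) against 80.03% (77.8% to 82.2%), and in the other bands the intervals overlapped.

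**Figure D3:**
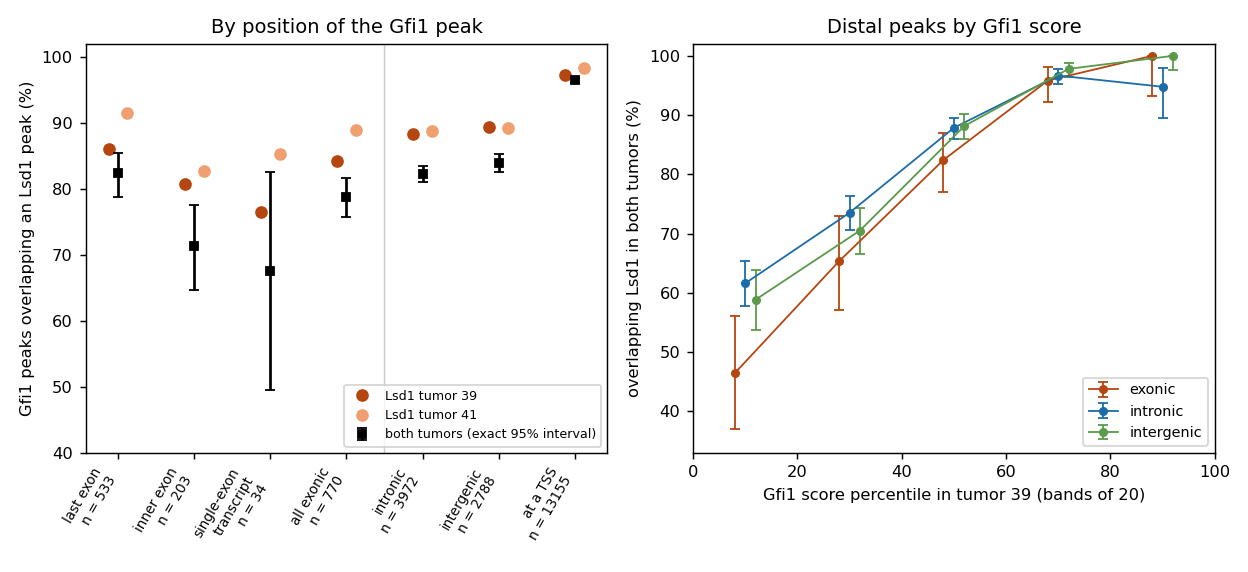
Left, percent of Gfi1 peaks of each class that overlap an Lsd1 peak in tumor 39, in tumor 41 (circles) and in both (squares, exact 95% intervals for counting error). Right, the same share in both tumors for distal peaks by Gfi1 score percentile in tumor 39, in bands of 20. Exonic shares rise from 46.4% to 100%.

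Last-exon peaks overlapped Lsd1 more often than inner-exon peaks in each tumor. In tumor 39 the shares were 86.1% and 80.8%, whereas tumor 41 gave 91.6% and 82.8%, with a mean difference of 7.06 ± 2.45 points (SD, n = 2 tumors). In both tumors 82.4% of last-exon peaks (78.9% to 85.5%) and 71.4% of inner-exon peaks (64.7% to 77.5%) were overlapped. Score and width moved with this difference. Last-exon peaks had a median width of 1678 bp and a median tumor 39 percentile of 55.1, whereas inner-exon peaks had 1323 bp and 44.7. The gap was present under the 40th percentile of score (64.1% of 156 against 46.0% of 87) and not above it, where the shares were 81.0% and 84.5% up to the 60th percentile and 96.3% and 100% beyond. Within each of 4 bands of width the last-exon share was the higher, from 62.8% against 51.2% under 1000 bp to 94.1% against 90.9% over 2000 bp, with overlapping intervals. At peaks in the upper 50% of both Gfi1 lists the mean difference turned to -2.16 points.

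The scores of the exonic peaks were ranked within each tumor. The median Gfi1 score percentile was 50.7 in tumor 39 and 37.0 in tumor 41. Of the 770 peaks, 512 (66.5%) stood higher in tumor 39, compared to 69.3% of all 20685 peaks of both tumors. That share was 54.1% for intronic, 59.1% for intergenic and 76.2% for TSS peaks. For intronic peaks the median percentiles in tumors 39 and 41 were 46.5 and 42.2, and for TSS peaks they were 81.2 and 71.4. Over all peaks of both tumors they were 71.2 and 61.0. The lists differ in length, so that a percentile in one list is not the same score or binding as in the other. Across the 770 peaks the Spearman correlation of the scores was 0.33, compared to 0.38 over intronic, 0.51 over intergenic and 0.76 over TSS peaks. These values are descriptive, since peaks of 1 list share its library. In the upper 20% of the score, 53 exonic peaks (6.88%) were found in tumor 39 and 63 (8.18%) in tumor 41. In both tumors 17 were in that range. In tumor 39 the same range held 134 of 3972 intronic, 151 of 2788 intergenic and 6973 of 13155 TSS peaks. At 72 exonic peaks the tumor 41 partner came within 1 kb of a TSS, so that its score also reflects the promoter.

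**Figure D4:**
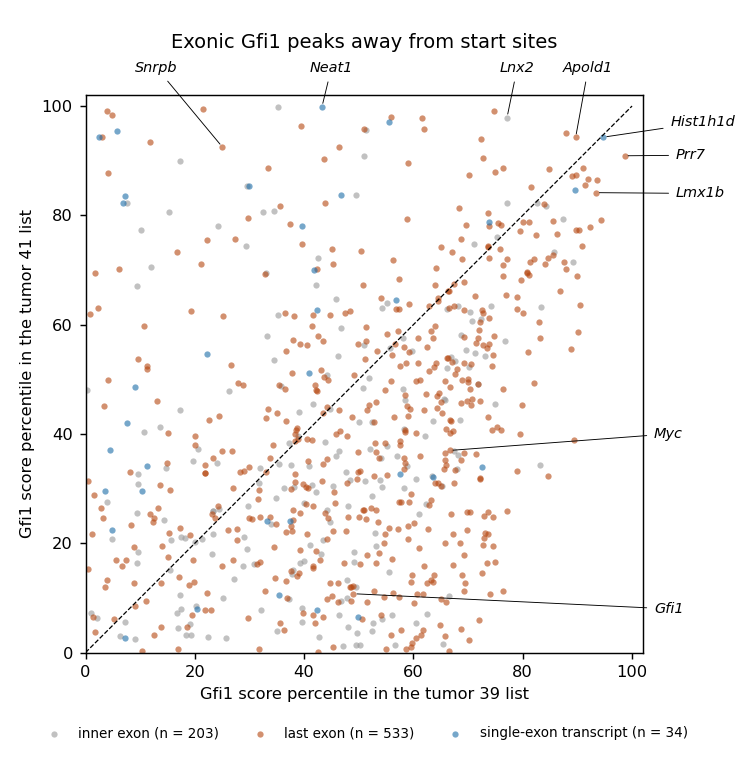
Gfi1 score percentile of each exonic peak in the tumor 39 list and of the overlapping peak in the tumor 41 list, by kind of exon. The dashed line marks equal percentiles. Of the 770 points, 512 (66.5%) lie below it, against 69.3% over all peaks of both tumors, 54.1% of intronic and 59.1% of intergenic peaks. Prr7 and Hist1h1d stand high in both tumors.

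The 12 exonic peaks with the highest mean Gfi1 percentile all overlapped Lsd1 in both tumors, as did nearly all strong peaks of the other classes. In the highest band of tumor 39 score the share was 100% of 53 exonic and 94.8% of 134 intronic peaks. It was 100% of 151 intergenic and 99.9% of 6973 TSS peaks. First of the 12 stood Prr7, a transmembrane adaptor of the postsynaptic density, with a peak of 5875 bp (chr13:55469981-55475855) centred in its last exon. That exon was 562 bp long, the midpoint lay 236 bp from the gene end, and the peak ran past the gene. The Gfi1 percentile of Prr7 was 98.6 in tumor 39 and 90.9 in tumor 41, and its Lsd1 percentile was 97.5 and 97.1. All 4 values stood near the top of their lists, although both Lsd1 peaks also reached a TSS. Hist1h1d, a linker histone gene without introns, followed with Gfi1 at 94.7 and 94.3 and Lsd1 at 94.8 and 96.0. Its annotated exon was 7425 bp long, and the peak (chr13:23554355-23556755) covered the coding stretch inside it (23555090 to 23555752), with its start. The peak began 1093 bp from the nearest TSS, and the overlapping peaks in the other 3 lists came within 1 kb of a TSS. The same held for Apold1, an endothelial early response gene, with Gfi1 at 89.7 and 94.3 and Lsd1 at 97.9 and 96.2.

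Of these 12 peaks, 8 were overlapped by distal peaks in all 3 other lists. Csrnp1, a nuclear protein induced by axin, had Gfi1 at 87.8 and 95.1 and Lsd1 at 92.9 and 94.6 in the 3′ UTR of exon 4 of 4 (chr9:119969685-119974766). Dusp8, a phosphatase of MAP kinases, had Gfi1 at 93.6 and 86.5 and Lsd1 at 94.1 and 96.7 (chr7:142081507-142085707). All 8 values of both genes were above the 86th percentile. Lmx1b, a LIM homeodomain factor required for the isthmus and for serotonergic neurons, carried one of the widest exonic peaks (9190 bp, chr2:33559082-33568271), 46127 bp from the nearest TSS. Its Gfi1 percentile was 93.4 and 84.2, whereas Lsd1 was at 36.1 in tumor 39 and 93.1 in tumor 41, so that the 2 Lsd1 lists disagreed at this gene. The others of the 12 were Pgpep1, the pseudogene Ppp4r1l-ps, Lrrc14, H13, the agouti gene a and Lnx2, with mean Gfi1 percentiles from 87.5 to 89.8.

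Among coding peaks not counted in a last exon, the highest were Hist1h1d, Lnx2, Sf3b5, Espn, Srcin1 and Itpr3. Hist1h1d and Sf3b5 lie in single-exon transcripts, whose only exon was not counted as a last exon. Lnx2, a ubiquitin ligase that binds Numb, differed between the tumors, with Gfi1 at 77.1 in tumor 39 and 97.9 in tumor 41 and Lsd1 at 78.0 and 95.3. Sf3b5, an SF3b splicing factor subunit without introns, had Gfi1 at 89.5 and 84.6 and Lsd1 at 81.5 and 84.6. Its annotated exon was 3841 bp long, and the midpoint lay 554 bp from the gene end. The window of Sf3b5 held 9.8 CpG per 100 bp, above the median of 6.4 of TSS peaks. Whether a start site lies inside this exon was not tested. Itpr3, an inositol trisphosphate receptor that releases calcium from the endoplasmic reticulum, carried the widest of all exonic peaks at 11588 bp (chr17:27112638-27124225). Its Gfi1 percentile was 77.1 and 82.3 and its Lsd1 percentile 76.4 in each tumor. A peak of this width spanned many exons, and 30.9% of it was exonic. Dnajb12, a co-chaperone of the endoplasmic reticulum, carried the next widest peak at 10699 bp.

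At 43 exonic peaks (5.58%) no Lsd1 peak was found in either tumor, against 5.19% of intronic and 5.31% of intergenic peaks. The highest of the 43 were at Snrpb, Ndufb7, Ccdc80, Dtx4, Grm2 and Ccdc85c, with mean Gfi1 percentiles from 58.8 down to 39.4. Snrpb, a core spliceosome protein, had Gfi1 at 25.0 in tumor 39 and 92.5 in tumor 41, and Ndufb7, a subunit of respiratory complex I, had 10.1 and 77.4. At both genes the tumor 41 peak came within 1 kb of a TSS. Grm2, a metabotropic glutamate receptor, had 49.7 and 31.8. A missing Lsd1 peak says that none was called, not that Lsd1 was absent.

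The 770 peaks lay in 714 host genes, of which 663 held 1 peak and 47 held a pair. Srcin1 held 4, and Itgb4, Per1 and Neat1 held 3 each. In Srcin1, a regulator of Src kinase in neurons, 2 peaks lay over inner coding exons (Gfi1 at 89.2 and 71.5 for the first, 70.4 and 62.3 for the second) and 2 lay over the last exon (72.6 and 14.6, then 63.3 and 13.2). Both inner peaks were covered by 1 Lsd1 peak in each tumor, at 76.3 in tumor 39 and 80.9 in tumor 41. The last-exon peaks thus stood low in tumor 41 and higher in tumor 39, where the median over all peaks of both tumors was 71.2. In Itgb4, the integrin beta 4 subunit, all 3 peaks covered inner coding exons, and the highest (8315 bp) stood at 85.7 in the tumor 39 Gfi1 list and ran past the end of the gene. The peaks over its exons stood at 68.2 for Gfi1 in tumor 41 and at 79.3 and 82.4 for Lsd1, and the higher Lsd1 peaks at 91.6 and 90.5 lay beyond the last exon.

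Per1, a repressor of the circadian clock, and Neat1, a long non-coding RNA that builds paraspeckles, each sat in a broad stretch of Gfi1 and Lsd1. The Per1 peak nearest the promoter had Gfi1 at 35.3 in tumor 39 and 99.8 in tumor 41, and the Neat1 one had 43.3 and 99.8. In each case the tumor 41 peak was a single wide peak that ran from the promoter. The other 2 Neat1 peaks were weak, at 10.3 and 29.5 and at 3.63 and 29.5, and 1 of them had no Lsd1 peak in either tumor.

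**Figure D5:**
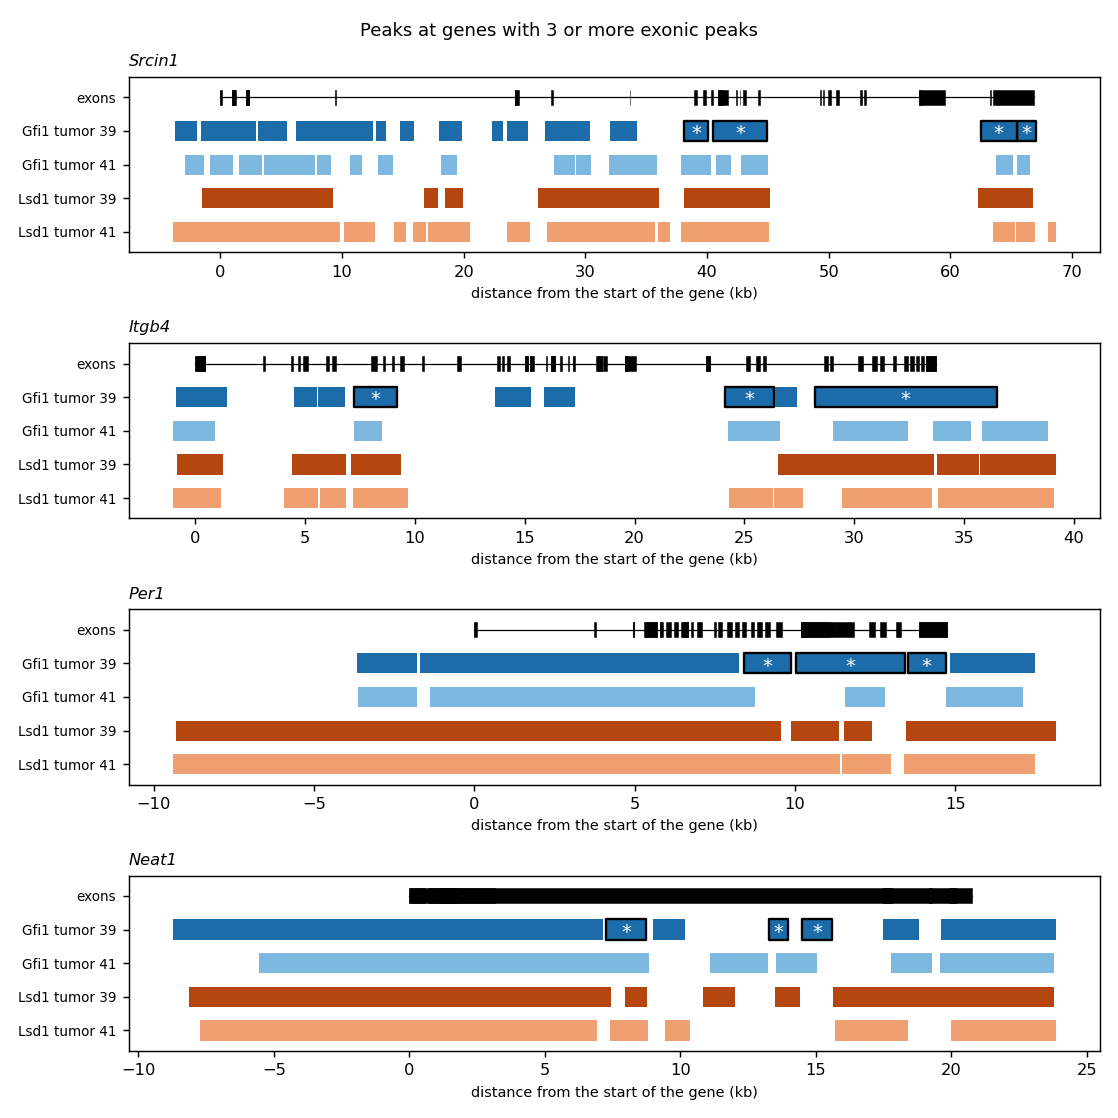
Peaks of the 4 libraries along the 4 genes with 3 or more exonic Gfi1 peaks, in kb from the gene start. Black boxes are exons of all transcripts, and outlined bars with an asterisk are the exonic peaks. At Neat1 the tumor 41 Gfi1 peak spans the promoter and the first exonic peak, and at Per1 it runs from the promoter into the start of the first exonic peak.

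Most host genes also had Gfi1 at a start site. Of 20781 protein-coding genes with an exonic base over 1 kb from every TSS, 631 (3.04%) held an exonic peak. A Gfi1 peak at a TSS was found at 509 of these 631 genes (80.7%), whereas it was found at 55.2% of all 20781. The 606 exonic peaks whose host gene had such a peak and the 164 whose host gene had none overlapped Lsd1 in both tumors at 78.1% and 81.7%. A tumor 39 Gfi1 peak at a TSS lay within 1 kb of 164 exonic peaks, and 83.5% of these overlapped Lsd1 in both tumors compared to 77.6% of the others. By biotype, 684 peaks had a protein-coding host, 39 a lincRNA and 18 an antisense RNA. At 18 peaks the midpoint lay in exons of 2 or more genes, and the peak cannot be assigned to one of them.

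Both genes carried by the retroviruses held a last-exon peak over coding sequence. The Gfi1 peak (chr5:107717243-107718334, exon 6 of 6) had Gfi1 percentiles of 49.0 and 10.8 and Lsd1 percentiles of 23.5 and 36.4. The Myc peak (chr15:61989092-61990125, exon 3 of 3) had Gfi1 percentiles of 66.6 and 37.0 and Lsd1 percentiles of 49.6 and 75.8. Neither was among the strong peaks. Reads from the endogenous exon and from the viral cDNA cannot be told apart in these lists. The label of the listed control, Myc/Gfi1b, names Myc but not Gfi1. Whether the control offsets viral copies at either peak was not tested.

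Hosts were also counted in lists of genes that were matched by the stem of the symbol, so that each list leaves out genes of the same function with other names. Beside these counts, 3.04% of all eligible protein-coding genes held a peak, and 78.4% of the 684 peaks in protein-coding hosts overlapped Lsd1 in both tumors. Of 51 Notch, Wnt and hedgehog genes, 7 (13.7%) held 9 peaks, and all 9 overlapped Lsd1 in both tumors. Apc2, a neural relative of the Wnt regulator Apc, stood highest with Gfi1 at 92.3 and 77.9 and Lsd1 at 82.1 and 88.9, although its Lsd1 peaks came within 1 kb of a TSS. The Wnt ligands Wnt10a (74.7 and 57.9), Wnt8a (58.4 and 47.2) and Wnt10b followed, and the Notch receptors Notch1 and Notch3 and the ligand Dll3 were also hosts. Of 109 chromatin regulators, 8 (7.34%) held 10 peaks, and 9 of these overlapped Lsd1 in both tumors. Arid1a, a BAF remodeler subunit, had Gfi1 at 51.0 and 90.9, and Hdac7, a class IIa histone deacetylase, had 72.4 and 61.0. Tet3, a 5-methylcytosine oxidase, held 2 peaks in its last exon, with Gfi1 at 69.4 and 12.7 for the higher.

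Of 71 axon guidance genes 5 (7.04%) held a peak. Ntn1, the guidance cue netrin 1, had Gfi1 at 68.4 and 81.3 and Lsd1 at 78.4 and 93.8 in its 3′ UTR. Efna2, an ephrin ligand, had Gfi1 at 89.4 in tumor 39 and 38.8 in tumor 41. Of 132 ion channel genes named Kcn, Scn or Cacn, 7 (5.30%) held 9 peaks, each overlapped by Lsd1 in both tumors, and Kcnh2, the hERG potassium channel, was the highest (83.3 and 63.3).

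Zinc finger genes made up 14 hosts of 492 (2.85%), near the 3.04% of all protein-coding genes, although 386 of the 492 had a Gfi1 peak at a TSS. Zfp771 was the highest, with Gfi1 at 94.4 and 79.2 and Lsd1 at 92.2 and 88.4, and its window held 16.4 CpG per 100 bp. Of 85 genes with a listed homeobox symbol, such as Lhx, Pax, Zfhx and Cux, 4 held a peak, and 1 of the 4 peaks overlapped Lsd1 in both tumors. The symbols leave out other homeobox hosts. Among these, Lmx1b, Uncx and Tgif2 were overlapped by Lsd1 in both tumors, and Hmx2 and Zhx3 in 1 tumor each. The list thus gives no Lsd1 share for homeobox genes as a family. A peak was also found in RNA-binding and splicing factors (4 of 92), cytosolic ribosomal proteins (2 of 65), protocadherins (1 of 69), collagens and laminins (1 of 55) and olfactory receptors (1 of 1050). Of 13 eligible genes that the study named as repressed or tested, none held an exonic peak, beside 3.04% of all eligible protein-coding genes. A Gfi1 peak at a TSS was found at 8 of the 13, beside 55.2% of all eligible protein-coding genes. With 13 genes, neither count sets them apart from these shares. These counts are not scaled for exon length and were not tested.

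The 1 kb distance set which peaks entered. Just inside it lay peaks at Ndufv1 (1004 bp from a TSS), Casz1 (1006 bp) and Jsrp1 (1008 bp), and just outside it lay peaks at Tnxb (995 bp), Klf10 (994 bp) and Pofut2 (991 bp). Their Gfi1 scores in tumor 39 ranged from 56.83 to 396.61 inside and from 77.18 to 641.51 outside. Another 6515 exonic peaks were within 1 kb of a TSS. Counting the TSSs of protein-coding transcripts alone raised the number of exonic distal peaks to 1405 and lowered the last-exon share to 52.0%.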

How the data were processed

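ChIP-seq of Gfi1 and Lsd1 was performed on 2 MG tumors. The authors aligned reads to mm10 with BWA 0.6.2, removed duplicates with Picard and called peaks with MACS at default settings against input, separately for each library. The deposited score of each peak has no stated definition and was used only as a percentile within its list. The deposited lists hold no read counts. TSSs, exons and coding sequence were taken from GENCODE M21 (132629 TSSs), where the authors used an earlier release, and bases from GRCm38. Overlap required 1 bp. CpG and motifs were counted within 250 bp of the midpoint. Exact binomial intervals (95%) cover counting error only, and the SD is over 2 tumors. No test was run. Same-numbered libraries come from the same tumor. Genes were named by rank, last exon, coding exon, lack of Lsd1, number of peaks, gene list, nearness to 1 kb and width. Members and lists were chosen with earlier results of these data known. In all 1 peak and 1 gene list within these rules are not reported here. The interval code was tested on simulated data. Python 3.11.15, numpy 2.4.6, scipy 1.17.1, pysam 0.24.0 and matplotlib 3.10.9 were used.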

Additional observations from a re-analysis of the deposited data

How the results depend on the processing

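Of the alternatives, the start-site reach of the partner peaks, the neighbouring promoter peak and all values of the last-exon difference were added after seeing the data. The number of exonic peaks was 17 and 178 in the upper 20% and 50% of both Gfi1 scores, 1405 with TSSs of protein-coding transcripts alone, and from 916 to 2333 when a Gfi1 replicate was left out. The share overlapping Lsd1 in both tumors was 100%, 96.1% and 83.0% under the first 3 of these, 72.5% with an overlap of at least 50%, 10.3% with upper 20% Lsd1 peaks, 19.2% with peaks trimmed to 200 bp and 61.3% with distal Lsd1 peaks alone. It was 73.9% without Gfi1 replicate 1 and 40.7% without Gfi1 replicate 2. With an Lsd1 replicate left out, the share can only be that of the remaining Lsd1 list. That share was 88.96% without Lsd1 replicate 1 and 84.3% without Lsd1 replicate 2. The last-exon share was 76.5%, 78.1% and 52.0% under the same 3 settings and 62.7% for last exons of every transcript, and from 65.0% to 72.6% without a Gfi1 replicate. The exonic share of distal peaks was 15.1% with protein-coding TSSs and from 8.40% to 12.8% without a replicate.

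The exonic minus intronic difference in Lsd1 overlap was 3.49 points in the upper 20% of Gfi1 scores, 1.40 with upper 20% Lsd1 peaks and -6.90 with distal Lsd1 peaks, and ran from -9.07 to 5.48 points without a replicate. The last-exon minus inner-exon difference was 0 points in the upper 20% of Gfi1 scores, -2.16 in the upper 50%, 0.52 with protein-coding TSSs and -0.22 with peaks trimmed to 200 bp, and ran from 1.95 to 9.56 points without a replicate. The cause was not tested. With the replicate block, in which Lsd1 of each tumor was set against the Gfi1 peak of the same tumor, the share overlapping Lsd1 in both tumors was 79.7%, the exonic minus intronic difference was -1.68 points and the last-exon minus inner-exon difference was 6.83 points. The other alternatives moved no value by more than the spread between tumors, or the number of peaks by over 1.5 times. The lists carry no depth, so that weak peaks missing from a list cannot be told from absent ones.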
